A study of Mus musculus with 13 samples.

Results

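The 45 proteasome genes described here encode the subunits of the proteasome, its activators and inhibitor, and the chaperones that put it together. They were taken by symbol, as the Psma, Psmb, Psmc, Psmd, Psme, Psmf and Psmg genes without the inducible Psmb8, Psmb9 and Psmb10 and without pseudogene and Rik symbols, and needed 10 or more counts in 2 or more libraries. Of 47 symbols that matched, 45 passed, out of 22997 genes in the table. Psma8, a testis alpha subunit, had 3 counts over all libraries, and Psmb11, the beta subunit of thymic epithelium, had 2. The 45 genes were 14 of the 20S core (7 alpha and 7 beta subunits), 17 of the 19S cap (6 ATPases, 3 other base subunits and 8 lid subunits), 7 assembly factors and 6 regulators. The remaining gene, Psmc3ip, encodes a meiotic recombination factor and is no proteasome subunit, but its symbol fits the pattern. No measured value entered this rule beyond the count minimum, but the genes and lists were chosen with earlier results of these data known.

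RNA was sequenced in bulk from sorted bone marrow cells of C57/BL6 mice, which carried CD138 and CD45.2 and lacked B220, in 13 libraries. VQ cells carried the Vκ*MYC transgene, one Nras allele that Cre turns into the activated Q61R form (Nras LSL Q61R/+) and IgG1-Cre, and were taken from mice that had received one of 3 lines, with 2 libraries for D1, 1 for D4 and 2 for D5. The tVk12653 cells came from 2 recipients of a single transplantable line of the Vκ*MYC model. V is 3 libraries of cells with Vκ*MYC and IgG1-Cre, and WT is 3 libraries of wild-type cells. The transgene holds human MYC under kappa light chain control and becomes active in B cells of the germinal centre, and IgG1-Cre acts in B cells that switch to that isotype. Each transplanted line is 1 tumour, and recipients of a line are not separate tumours. The 2 tVk12653 recipients still entered the tests as separate units, so p-values that involve tVk12653 do not measure a spread between such tumours. Only VQ and tVk12653 cells passed through recipients, which means that the effects of genotype and of transplantation cannot be told apart between these groups and V or WT. The labels do not say whether the V and WT libraries of a group came from separate animals, so p-values measure the spread between these libraries, which may be technical.

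The proteasome degrades proteins tagged with ubiquitin. Its 20S core is a barrel of alpha rings, which gate the entry, and beta rings, of which Psmb5, Psmb6 and Psmb7 carry the proteolytic sites. The 19S cap binds the ubiquitin chain, removes it and threads the substrate into the core with a ring of ATPases. Plasma cells make and discard large amounts of secretory protein, and proteasome inhibitors such as bortezomib, which binds the Psmb5 product, are standard drugs for multiple myeloma, the cancer of plasma cells.

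Total counts were 2096815 to 8512281 per library. Of the 45 genes, 43 had 10 or more counts in every library, Psme2b had them in 10 libraries and Psmg3 in 7. All 45 were tested in every comparison. The marker genes of the sort and of other cells differed between groups. The summed level of 7 plasma cell markers was 5213 to 7932 CPM (counts relative to the scaled library total) in VQ, 8358 to 12087 in tVk12653, 41551 to 62451 in V and 37799 to 70807 in WT. Most of that gap was Jchain, the joining chain of secreted antibody, while Sdc1, which encodes CD138, was not called between VQ and WT (log2 fold change 0.06). The 8 neutrophil markers summed to 69.3 to 1227 CPM in VQ, 89.0 to 153 in tVk12653, 1799 to 3615 in V and 3304 to 8940 in WT, and all 8 were lower in VQ than in WT. The 6 erythroid markers summed to 0.766 to 4.50 CPM in VQ, 0.724 to 0.923 in tVk12653, 1.97 to 9.73 in V and 55.7 to 300.3 in WT. The 4 B cell markers summed to 1.61 to 7.15 CPM in VQ, 0.724 to 0.923 in tVk12653, 372 to 566 in V and 343 to 577 in WT. The 6 T and NK cell markers summed to 1.26 to 4.85 CPM in VQ, with Ncr1 at 0, stood at 0 throughout in tVk12653, and summed to 21.3 to 25.0 in V and 15.3 to 45.6 in WT. Monocyte markers reached 368 to 1195 CPM in VQ, 1321 to 1946 in tVk12653, 1184 to 1481 in V and 1394 to 2278 in WT. In tVk12653 that sum was mostly Ctss, at 969 and 1433 CPM per kilobase of transcript, against 661 to 818 in WT. Lyz2 stood there at 5.44 and 3.02 CPM per kilobase, against 247 to 1011 in WT. Of the 4 monocyte markers tested, 3 were called lower in VQ than in WT and 3 in tVk12653 than in WT. Over all genes, 15.1% and 15.7% were called lower. In tVk12653, Ms4a1, Hbb-b1, Hba-a2, Cd14 and Fcgr1 were also at 0. WT replicate 2 had the highest neutrophil and erythroid sums of its group, and D1 replicate 1 the highest neutrophil sum of VQ. The part of these cells in the results below was not tested, except that the counts are also given without those 2 libraries. In bulk RNA, fewer cells of a type and less RNA per cell cannot be told apart.

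Within WT plasma cells, levels per kilobase of transcript differed widely among the proteasome genes. Psma7, an alpha subunit, was the most abundant at 152 ± 24.7 CPM per kb (SD, n = 3), followed by Psme1 (145 ± 14.9), which encodes the PA28 alpha activator, Psmd4 (127 ± 7.18), a ubiquitin receptor of the cap, Psmb6 (106 ± 22.5) and Psmd8 (87.2 ± 6.03). Neighbours among these leading genes were mostly within their spread. At the other end stood Psmg3 at 3.14 ± 0.22, Psma3 at 6.26 ± 0.36, Psmc3ip at 6.30 ± 3.27, Psmd9 at 6.88 ± 2.06, Psmd10 at 7.54 ± 2.29 and Psmd5 at 8.14 ± 0.07. Of the 7 assembly factors, 6 ranked between 38 and 45 of 45 in WT per kilobase, and Psmg4 ranked 22 with 39.0 ± 3.04. A near copy elsewhere in the genome, at least 95% identical over 200 or more bases, exists for 12 of the genes, Psma3 with 3 copies among them, and 10 share exonic bases with a gene on the other strand. Their levels are uncertain, because it is not known how reads that align to several places, or to the other strand, were counted.

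The sums of core, cap and assembly RNA were each highest in the D5 line and, by group mean, lowest in WT. The 14 core genes summed to 1285 and 1390.3 CPM in D1, 1271 for D4, and 1802 and 1890.0 for D5, to 1052 and 1157 in tVk12653, to 907, 1124 and 982 in V, and to 919.8, 832 and 871 in WT. The 17 cap genes summed to 2272 and 2448 CPM in D1, 2269.8 for D4, and 3341 and 3747 for D5, to 2091 and 2048 in tVk12653, to 1588, 1865 and 1643 in V, and to 1626, 1591 and 1648 in WT. The 7 assembly genes summed to 153 and 164 CPM in D1, 163 for D4, and 171 and 191 for D5, to 133 and 169 in tVk12653, to 113, 138 and 125 in V, and to 109, 115 and 111 in WT. All 5 VQ libraries and both tVk12653 libraries were above all WT libraries in each of the 3 sums, while V and WT overlapped in all 3. Relative to the WT mean the D5 libraries stood at 2.06 and 2.16 for the core, 2.06 and 2.31 for the cap and 1.54 and 1.71 for assembly. The D1 and D4 libraries stood at 1.45 to 1.59 for the core, 1.40 to 1.51 for the cap and 1.38 to 1.47 for assembly. The tVk12653 libraries stood at 1.20 and 1.32 for the core, 1.29 and 1.26 for the cap and 1.20 and 1.52 for assembly. The cap sum divided by the core sum was 1.76 to 1.98 in VQ, 1.77 to 1.99 in tVk12653, 1.66 to 1.75 in V and 1.77 to 1.91 in WT, so VQ and WT overlapped in this ratio. The 45 genes together took 0.430 to 0.675% of counts in VQ, 0.383 to 0.401% in tVk12653, 0.316 to 0.382% in V and 0.315 to 0.329% in WT.

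**Figure D1:**
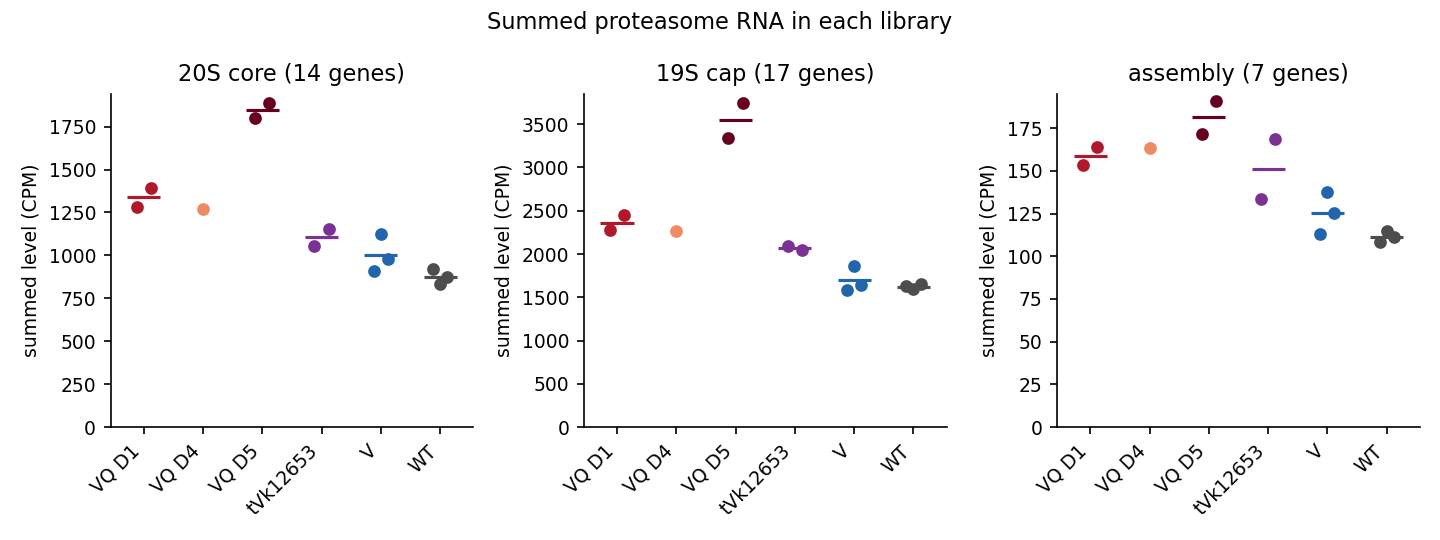
Summed CPM (y axis) of the 14 core, 17 cap and 7 assembly genes in each of the 13 libraries, by group (x axis), with the group mean as a horizontal line. The D5 libraries are the highest in each panel, and all 5 VQ libraries lie above all 3 WT libraries.

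VQ against WT sets the transplanted MYC and mutant NRAS tumours against normal plasma cells. By edgeR's quasi-likelihood test with Benjamini-Hochberg adjustment over all genes, 27 of the 45 genes rose and none fell. Over all 11933 genes tested, 17.3% were called higher and 15.1% lower. At an unadjusted p under 0.05, 34 of the 45 were higher and 0 lower, and DESeq2 called 26 higher and 0 lower. Over all 11933 genes, 5271 had an unadjusted p under 0.05 in either direction. The share of all genes that DESeq2 called is not given here or below. The median log2 fold change of the 45 genes was 0.80, against 0.08 over all genes, and 42 of 45 were above 0. In 28 of the 45, every VQ library was above every WT library, as for 17.7% of all genes. The counts by class were 10 of 14 for the core, 13 of 17 for the cap, 3 of 7 for assembly and 1 of 6 for the regulators. The class medians were 0.80, 0.85, 0.96 and 0.38 on the log2 scale.

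All 3 catalytic subunits of the constitutive core rose. Psmb5, the chymotrypsin-like subunit, had 29.8 and 28.3 CPM in D1, 31.8 for D4, and 30.7 and 31.7 for D5, against 14.1, 12.5 and 16.2 in WT. The VQ libraries lay within a narrow band above all WT libraries, and the log2 fold change was 1.15 ± 0.24 (SE, adjusted p = 0.00656). Psmb5 has 1 near copy in the genome. Psmb6, the caspase-like subunit, had 147 and 155 CPM in D1, 138 for D4, and 125 and 141 for D5, against 103, 82.8 and 67.6 in WT. The groups did not overlap, and the log2 fold change was 0.80 ± 0.18 (adjusted p = 0.00789). Psmb7, the trypsin-like subunit, had 67.4 and 76.5 CPM in D1, 69.1 for D4, and 101 and 97.3 for D5, against 40.1, 43.1 and 48.8 in WT. Again no VQ library reached down to WT, and the log2 fold change was 0.93 ± 0.20 (adjusted p = 0.00647).

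Among the beta subunits without proteolytic activity, Psmb4 had the largest change of the core. It stood at 82.5 and 100.1 CPM in D1, 97.8 for D4, and 276 and 291 for D5, against 55.9, 51.5 and 61.3 in WT. Every VQ library was above WT, but the D5 libraries were far above the other VQ lines, and the log2 fold change was 1.57 ± 0.40 (adjusted p = 0.0156). Psmb2 (0.81) and Psmb3 (0.93) also rose, and Psmb1 did not pass (0.43, adjusted p = 0.0525). Of the alpha subunits, which form the gated outer rings, Psma2 (0.66), Psma5, Psma6 (0.73) and Psma7 rose. Psma5 had 25.0 and 26.6 CPM in D1, 22.7 for D4, and 43.7 and 44.4 for D5, against 12.7, 15.8 and 12.8 in WT (log2 fold change 1.23 ± 0.31, adjusted p = 0.0135). Psma7 had 278 and 226 CPM in D1, 216 for D4, and 362 and 381 for D5, against 162, 117 and 138 in WT (1.05 ± 0.23, adjusted p = 0.00771). Both alpha subunits showed the same arrangement, with all VQ libraries above WT and D5 on top. Psma1 (0.70), Psma3 (0.28) and Psma4 (0.63) had log2 fold changes above 0 that did not pass. Psma5 has 2 near copies, which makes its level uncertain.

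In the cap, Psmd8, a lid subunit, had the largest change. It stood at 292 and 255 CPM in D1, 365 for D4, and 278 and 333 for D5, against 143, 136 and 124 in WT. Here the D4 library was the highest of VQ and all VQ libraries were well above WT (log2 fold change 1.27 ± 0.16, adjusted p = 0.000542). Psmd3, another lid subunit, had 175 and 188 CPM in D1, 179.7 for D4, and 279 and 319.6 for D5, against 109, 92.4 and 128 in WT (1.07 ± 0.25, adjusted p = 0.00968). Psmd14, the deubiquitinase of the lid that removes ubiquitin chains, had 89.5 and 83.5 CPM in D1, 63.0 for D4, and 91.0 and 104 for D5, against 47.5, 47.1 and 38.0 in WT (0.95 ± 0.21, adjusted p = 0.00816). No VQ library overlapped WT for either gene. The lid subunits Psmd6 (0.77), Psmd12 (0.77) and Psmd13 (0.55) also rose. All 3 base subunits outside the ATPase ring rose. They are the scaffold subunits Psmd1 (0.90 ± 0.20) and Psmd2 (0.63 ± 0.18) and the ubiquitin receptor Psmd4 (1.02 ± 0.27). Of the 6 ATPases, Psmc1 (0.85), Psmc4 (0.86), Psmc5 (0.89) and Psmc6 (0.88) rose by similar log2 amounts.

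Psmc4 had 124 and 141 CPM in D1, 103 for D4, and 115 and 140.1 for D5, against 73.5, 65.5 and 71.8 in WT (adjusted p = 0.00338). Psmc6 had 108 and 113 CPM in D1, 97.1 for D4, and 117 and 157 for D5, against 66.5, 66.6 and 63.0 in WT (adjusted p = 0.00439). The WT libraries were close together for both ATPases and no VQ library came near them. Psmc3, at 0.79 ± 0.28, did not pass (adjusted p = 0.0529). Psmc2, the remaining ATPase, went 2 ways among the lines, with 49.4 and 62.4 CPM in D1, 43.8 for D4, and 128 and 132 for D5, against 77.7, 82.1 and 86.9 in WT. The D1 and D4 libraries were below all WT libraries and the D5 libraries above them, and the log2 fold change over the lines was -0.02 ± 0.35. Psmd7, a lid subunit, had 76.0 and 74.2 CPM in D1, 127 for D4, and 246 and 272 for D5, against 111, 109 and 119 in WT. Its lines were also spread to both sides of WT, and it did not pass (0.51 ± 0.38, adjusted p = 0.333). Psmd11 (0.28) was the other lid subunit that did not pass.

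Of Psmg1 to Psmg4, which encode chaperones that guide the alpha ring of the core, Psmg1, Psmg2 and Psmg4 rose and Psmg3 did not pass the test. Psmg1 had 27.7 and 18.01 CPM in D1, 19.9 for D4, and 34.1 and 42.4 for D5, against 11.6, 9.94 and 11.6 in WT (log2 fold change 1.31 ± 0.36, adjusted p = 0.0201). Psmg2 had 17.5 and 21.8 CPM in D1, 18.5 for D4, and 30.2 and 22.0 for D5, against 12.7, 10.7 and 11.4 in WT (0.96 ± 0.24, adjusted p = 0.0123). Psmg4 had 42.5 and 52.6 CPM in D1, 67.2 for D4, and 22.2 and 37.3 for D5, against 20.4, 21.0 and 23.6 in WT (1.22 ± 0.28, adjusted p = 0.0095). Psmg1 and Psmg2 did not overlap between VQ and WT, whereas one D5 library was within the WT range of Psmg4. Psmg3, the partner of Psmg4, was low, at 2.69 and 3.47 CPM in D1, 3.23 for D4, and 11.9 and 16.1 for D5, against 2.81, 2.94 and 2.56 in WT (1.37 ± 0.65, adjusted p = 0.133). Only the D5 libraries stood apart from WT.

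The other 3 assembly factors, Psmd5, Psmd9 and Psmd10, are chaperones of the cap's base, and none of them passed the test. Psmd5 had 24.2 and 33.3 CPM in D1, 29.6 for D4, and 33.9 and 38.5 for D5, against 35.9, 36.1 and 35.5 in WT (log2 fold change -0.10 ± 0.18, adjusted p = 0.71). Psmd9 had 18.002 and 16.2 CPM in D1, 11.4 for D4, and 28.1 and 23.5 for D5, against 17.9, 23.2 and 12.5 in WT (0.07 ± 0.37, adjusted p = 0.897). Psmd10, which encodes gankyrin, had 21.0 and 18.8 CPM in D1, 13.6 for D4, and 11.1 and 11.5 for D5, against 7.38, 11.04 and 13.9 in WT (0.51 ± 0.32, adjusted p = 0.256). VQ and WT overlapped for all 3. The difference between the core chaperones and the base chaperones was not tested.

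Of the regulators, Psme3 rose. It encodes PA28 gamma, a nuclear activator that opens the core without ATP or ubiquitin. It had 194 and 203 CPM in D1, 162 for D4, and 311 and 317 for D5, against 90.4, 102 and 94.8 in WT, with no overlap (log2 fold change 1.30 ± 0.24, adjusted p = 0.00356). Psme1 and Psme2 encode the 2 subunits of the interferon-inducible PA28 activator. Psme1 had 389 and 472 CPM in D1, 190.5 for D4, and 162 and 179 for D5, against 175, 143 and 166 in WT (0.80 ± 0.35, adjusted p = 0.104). The D1 line was high and the D5 line within or near the WT range. Psme2 (0.35 ± 0.23), the activator gene Psme4 (0.42 ± 0.18), which encodes PA200, and the inhibitor gene Psmf1 (0.19 ± 0.16), which encodes PI31, did not pass. Psme2b, an intronless relative of Psme2 that is at least 95% identical to it over 794 bases, had 1.19 to 11.4 CPM in VQ and 7.38 to 16.2 in WT (-1.08 ± 0.58, adjusted p = 0.176). Psmc3ip did not pass either (1.66 ± 0.59, adjusted p = 0.0557).

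**Figure D2:**
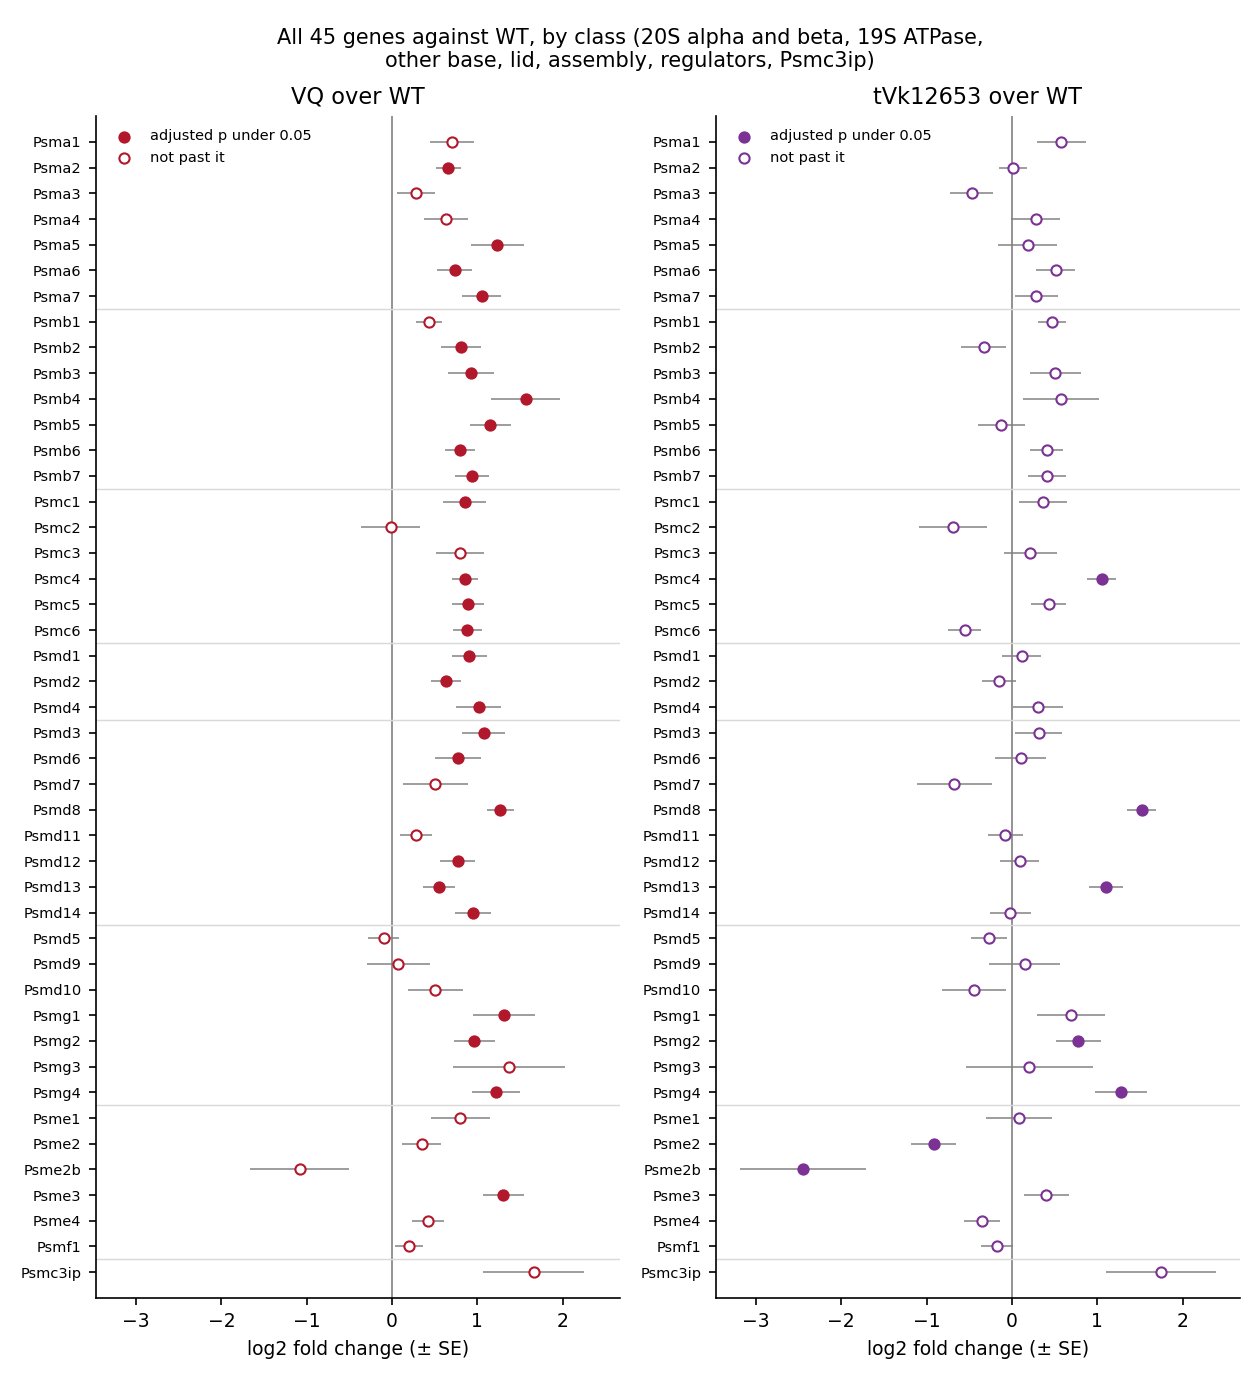
Log2 fold changes (x axis) of the 45 genes, grouped by class down the page, for VQ over WT (left) and tVk12653 over WT (right). Bars are ± 1 SE, and filled points passed an adjusted p of 0.05. On the left 27 genes are filled, all to the right of 0. On the right 5 are filled above 0 and 2 below.

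The count of 27 rested in part on single libraries, since without WT replicate 3 it was 14, and without WT replicate 2 and D1 replicate 1 together it was 19. In a fit of VQ and WT alone it was 15. Of the 27 calls, 11 held under all 20 alternatives. They were Psma7, Psmb5, Psmb7, Psmc4, Psmc5, Psmc6, Psmd1, Psmd3, Psmd8, Psmd14 and Psme3. Without the D5 line, 26 genes were higher and 2, Psmc2 and Psme2b, lower.

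VQ against V asks about the tumours relative to plasma cells that carry the transgene and Cre and were not transplanted. In this comparison 20 of the 45 genes rose and none fell, where 15.6% of all genes were called higher and 12.4% lower. DESeq2 called 19 higher and 0 lower, and at an unadjusted p under 0.05, 30 were higher and 1, Psme2b, lower. Over all 11933 genes, 4948 had such a p in either direction. The median log2 fold change was 0.64, against 0.08 over all genes. The calls were 7 of 14 core genes, 12 of 17 cap genes, 0 of 7 assembly genes and 1 regulator. Psme3 had 88.6, 102 and 90.1 CPM in V and the largest called log2 fold change after Psmb4 (1.32 ± 0.24, adjusted p = 0.00426, against 1.36 ± 0.40 and adjusted p = 0.0316 for Psmb4). Psmd3 (1.08), Psmd8 (0.99), Psma5 (0.97) and Psmd4 (0.95) followed. Psmd8 had 143, 186 and 155 CPM in V, below all VQ libraries. Of the catalytic subunits, Psmb7 rose (0.64 ± 0.20, adjusted p = 0.0361), and Psmb5 (0.61 ± 0.24) and Psmb6 (0.41 ± 0.17) did not pass. In the V libraries Psmb5 stood at 21.7, 19.9 and 20.4 CPM, still below every VQ library. The assembly genes had log2 fold changes of 0.99 (Psmg1), 0.59 (Psmg2), 1.27 (Psmg3), 0.68 (Psmg4), -0.12 (Psmd5), 0.40 (Psmd9) and 0.29 (Psmd10), and the remaining regulators lay between -1.42 (Psme2b) and 0.45 (Psmf1). Of the 20 calls, Psmd8 and Psme3 held under all 20 alternatives. Single libraries moved the count widely, to 5 without V replicate 1 or V replicate 3, 12 without V replicate 2 or WT replicate 3, and 11 without either tVk12653 library, and a fit of VQ and V alone called 2. With the VQ recipients kept as single libraries, 22 genes were higher in VQ than in V, and 14 with the replicate number as a block in that fit. Calls over all genes in these refits are not given here.

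V against WT asks about the MYC transgene and Cre without transplantation. No proteasome gene was called, as was no gene of the 11933 (0% higher and 0% lower) by edgeR, although 628 genes had an unadjusted p under 0.05. None of the 45 had one. DESeq2 called 0 of the 45. Of the 45 log2 fold changes, 36 were above 0, with a median of 0.13, against 0.01 over all genes. Psmb5 had 21.7, 19.9 and 20.4 CPM in V and 14.1, 12.5 and 16.2 in WT, without overlap (0.54 ± 0.25, adjusted p = 0.948). Psmg4 had 26.6, 37.0 and 29.8 CPM in V and 20.4, 21.0 and 23.6 in WT (0.53 ± 0.28, adjusted p = 0.987). Psme1 had 241, 247 and 198 CPM in V and 175, 143 and 166 in WT (0.51 ± 0.35). In a paired fit of V and WT alone, with the replicate number as a block, Psme1 rose by 0.50 ± 0.12 (adjusted p = 0.0410), where 1.31% of 10510 genes were called higher and 3.24% lower. The labels do not state this pairing.

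tVk12653 against WT sets the other transplanted line, whose label names no Nras allele, against normal plasma cells. Here 5 of the 45 genes rose and 2 fell, where 12.6% of all genes were called higher and 15.7% lower. The median log2 fold change of the 45 genes was 0.20, against -0.05 over all genes. No core gene was called, and at an unadjusted p under 0.05, Psma6 and Psmb1 were higher and no core gene lower. Over all 11933 genes, 4829 had such a p in either direction. The genes that rose were the ATPase Psmc4, the lid subunits Psmd8 and Psmd13 and the core chaperones Psmg2 and Psmg4. Psmd8 had 379 and 394 CPM in tVk12653, against 143, 136 and 124 in WT (1.52 ± 0.17, adjusted p = 0.000437). Psmc4 had 152 and 140.0 CPM in tVk12653, against 73.5, 65.5 and 71.8 in WT (1.05 ± 0.17, adjusted p = 0.0026). Psmd13 had 156 and 152 CPM in tVk12653, against 87.9, 69.5 and 57.4 in WT (1.10 ± 0.20, adjusted p = 0.00427). None of the 3 cap genes overlapped with WT, and in each the 2 recipients were close together.

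Psmg2 had 19.2 and 20.6 CPM in tVk12653, against 12.7, 10.7 and 11.4 in WT (log2 fold change 0.78 ± 0.26, adjusted p = 0.0492). Psmg4 had 44.1 and 61.1 CPM in tVk12653, against 20.4, 21.0 and 23.6 in WT (1.28 ± 0.31, adjusted p = 0.0138). The 2 genes that fell were Psme2 and Psme2b, of the PA28 activator family, which are near copies of each other. How reads shared between them were counted is not known, so the 2 calls may not be separate. Psme2 had 16.6 and 15.2 CPM in tVk12653, against 30.2, 30.5 and 29.5 in WT (-0.92 ± 0.27, adjusted p = 0.0293). Psme2b had 2.08 and 2.17 CPM in tVk12653, against 7.38, 11.4 and 16.2 in WT (-2.45 ± 0.74, adjusted p = 0.0343). The other regulators did not pass, with Psme1 at 0.08, Psme3 at 0.40, Psme4 at -0.35 and Psmf1 at -0.18. The catalytic subunits did not pass either. Psmb5 had 16.6 and 9.41 CPM in tVk12653, on both sides of the WT libraries (-0.12 ± 0.28), Psmb6 had 105 and 120.1 (0.41 ± 0.19) and Psmb7 had 54.0 and 63.3 (0.41 ± 0.22). The assembly genes Psmg1 (0.69), Psmg3 (0.20), Psmd5 (-0.27), Psmd9 (0.15) and Psmd10 (-0.44) did not pass.

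With the VQ recipients kept as single libraries and arms as the groups, 5 genes were higher and 1 lower in tVk12653 than in WT, and with the replicate number as a block in that fit, 3 were higher (Psmc4, Psmd8 and Psmd13) and 0 lower. These 3 were also the calls that held under all 20 alternatives. The count of higher genes was 8 without D4, 10 without D5 and 3 without tVk12653 replicate 2, and a fit of tVk12653 and WT alone called 11 higher and 5 lower. The count of lower genes was 0 without either tVk12653 library, WT replicate 2 or WT replicate 3, 1 without WT replicate 1 or any V library, and 4 without D5. Against V, 3 genes rose (Psmd8 1.25, Psmd13 1.18 and Psmc4 0.99) and 3 fell, where 10.3% of all genes were called higher and 12.9% lower and the medians were 0.08 for the 45 genes and -0.04 for all. The genes that fell were the ATPase Psmc6 (43.2 and 45.9 CPM in tVk12653, against 67.4, 74.3 and 68.7 in V, -0.67 ± 0.20, adjusted p = 0.0352), Psme2 (-1.21 ± 0.27, adjusted p = 0.0125) and Psme2b (-2.79 ± 0.75, adjusted p = 0.0259). With the VQ recipients kept as single libraries, 3 genes were lower than in V, and with the block in that fit 1 was, Psme2. Without D5 the counts were 5 higher and 5 lower, without either tVk12653 library 0 were lower, without any 1 V library 1 was lower, and a fit of tVk12653 and V alone called 6 higher and 6 lower.

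VQ against tVk12653 compares the transplanted tumours with each other. Of the 45 genes, 8 were higher in VQ and none lower, where 5.97% of all genes were called higher and 4.19% lower. At an unadjusted p under 0.05, 19 were higher and 1, Psmd13, lower, and DESeq2 called 10 higher and 0 lower. Over all 11933 genes, 3473 had such a p in either direction. The median log2 fold change was 0.67, against 0.18 over all genes. The core genes were Psma2 (0.65), Psmb2 (1.14) and Psmb5 (1.28), the cap genes Psmc6 (1.43), Psmd2 (0.79) and Psmd14 (0.97), and the regulators Psme2 (1.26) and Psme4 (0.77). Psmc6 had 108 and 113 CPM in D1, 97.1 for D4, and 117 and 157 for D5, against 43.2 and 45.9 in tVk12653 (1.43 ± 0.20, adjusted p = 0.00391). Psmb5 had 28.3 to 31.8 CPM in VQ, against 16.6 and 9.41 in tVk12653 (1.28 ± 0.28, adjusted p = 0.022). Psmb2 had 54.3 to 93.9 CPM in VQ, against 33.0 and 35.1 in tVk12653 (1.14 ± 0.27, adjusted p = 0.0273). Psme2 had 28.8 to 49.4 CPM in VQ, against 16.6 and 15.2 in tVk12653 (1.26 ± 0.27, adjusted p = 0.0191). No VQ library overlapped tVk12653 in these 4 genes. Of the 45 genes, 23 had all VQ libraries above both tVk12653 libraries and 2 had all below. The share of all genes is not given here. None of the 8 calls held under all 20 alternatives. The count was 2 and 1 without tVk12653 replicate 1 and 2, 3 without WT replicate 3, 4 without WT replicate 1, WT replicate 2, V replicate 1 or V replicate 3, 5 without V replicate 2, and 14 without D4. It was 4 without WT replicate 2 and D1 replicate 1 together, and 0 in a fit of VQ and tVk12653 alone. Calls over all genes in these refits are not given here. Myc stood at 686 to 1663 CPM in VQ, 7989.8 and 8190.3 in tVk12653, 307 to 429.7 in V and 34.9 to 72.1 in WT, and whether transgene reads count towards it is not known.

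Of the 7 calls in tVk12653 against WT, 3 lay on chromosome 7 and 1 on chromosome 14. Psmg2, Psmg4 and Psme2b lay on chromosomes 18, 13 and 11. The share of all calls on these chromosomes is not given here, and no cut-off was set for a shifted chromosome. Psmd8 (GRCm38, chr7:29174188-29180701, minus strand), Psmc4 (chr7:28041707-28050101, minus strand) and Psmd13 (chr7:140881968-140898643, plus strand) are all on chromosome 7, where the genes other than the proteasome genes had a median log2 fold change of 0.75 in tVk12653 over WT. Psma1, also on chromosome 7, had 0.58 ± 0.29 and did not pass. Psmb5 (chr14:54614119-54618022, minus strand), Psmc6 (chr14:45329788-45349705, plus strand), Psmd6, Psme1 (chr14:55578123-55581529, plus strand) and Psme2 (chr14:55587441-55591113, minus strand) are on chromosome 14, where the other genes had a median of -0.86. On that chromosome Psme2 fell, and Psmb5 (-0.12), Psmc6 (-0.55), Psmd6 (0.10) and Psme1 (0.08) did not pass. Psmd7 (chr8:107580381-107588464, minus strand) had -0.68 ± 0.44 on chromosome 8, where the other genes had a median of -0.82. In VQ over tVk12653 the other genes of chromosome 14 had a median of 0.97, of chromosome 8 of 0.70 and of chromosome 7 of -0.56, and Psmb5, Psmc6 and Psme2 are among the 8 calls of that comparison. In V over WT the medians of these 3 chromosomes were 0.03, 0.04 and 0.01 for 7, 14 and 8. The 27 genes higher in VQ than in WT were spread over 11 of the 16 chromosomes that carry proteasome genes. The part of these chromosome-wide shifts in the values of the proteasome genes was not tested, and DNA copy number was not measured.

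**Figure D3:**
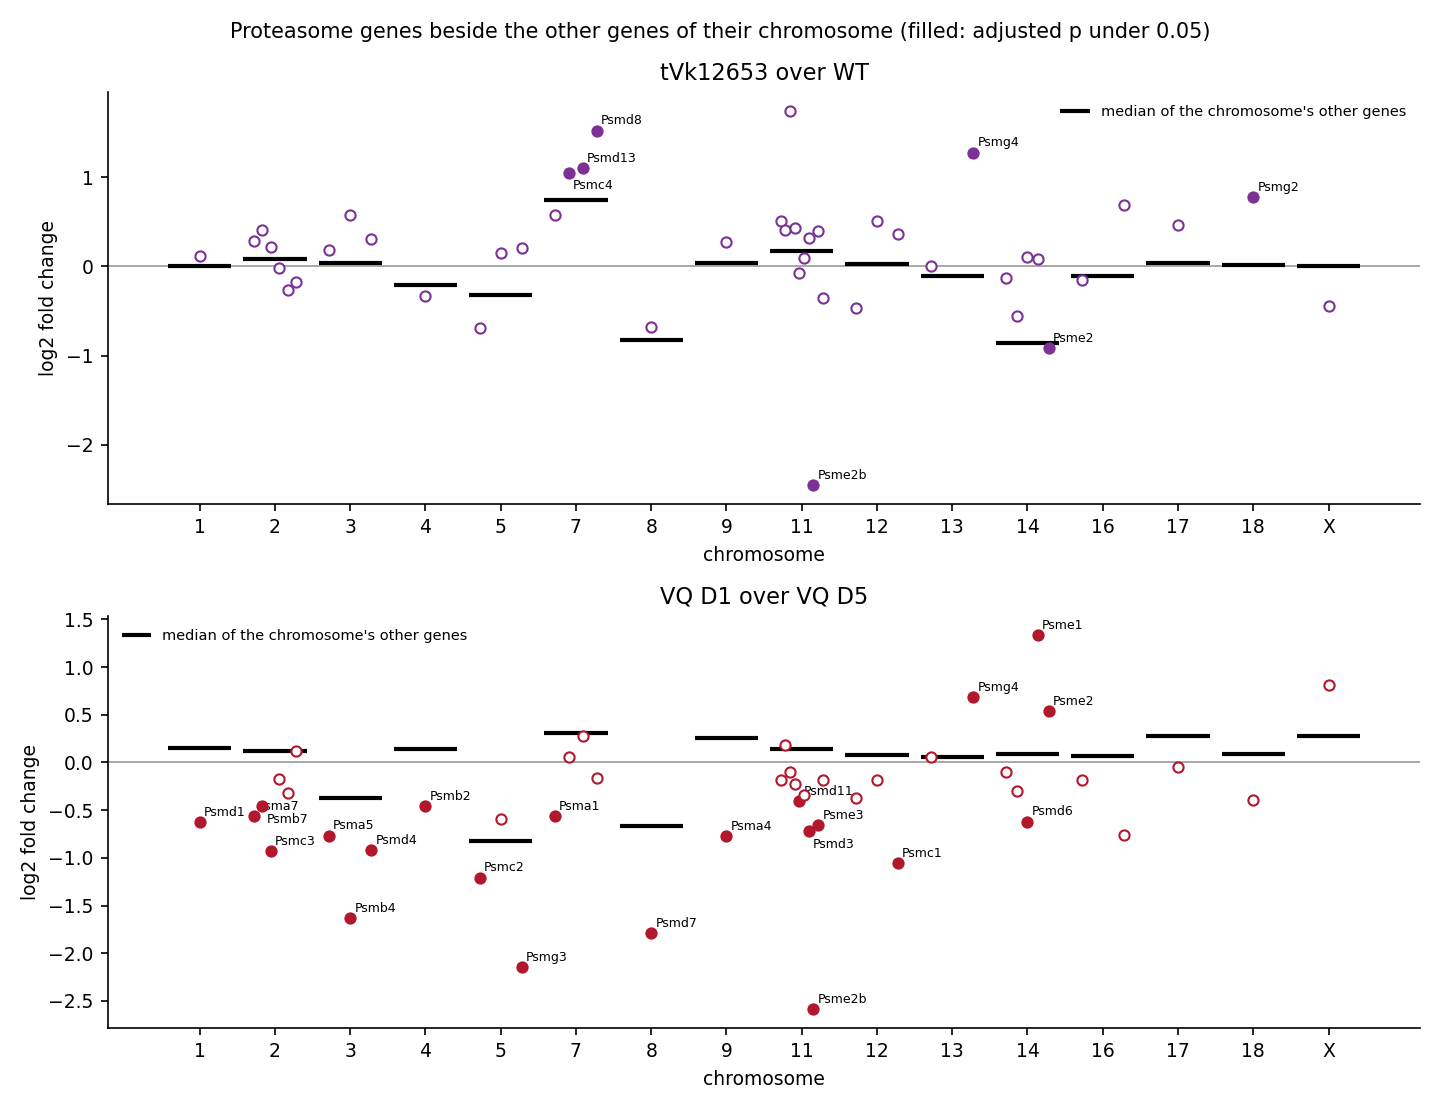
Log2 fold changes (y axis) of the proteasome genes by chromosome (x axis), with a bar at the median of the other genes of that chromosome, for tVk12653 over WT (top) and D1 over D5 (bottom). In the top panel the chromosome 7 genes lie high, around a median of 0.75, and the chromosome 14 genes mostly lie above their chromosome's median of -0.86.

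The VQ lines also differed from each other. D1 and D5 each had 2 recipients, so the test compares these 2 tumours with the spread between recipients. Of the 45 genes, 3 were higher and 19 lower in D1 than in D5, where 20% of all 12835 genes were called higher and 21.7% lower. The median log2 fold change was -0.38, against 0.05 over all genes. The lower genes were 7 of 14 core genes, 9 of 17 cap genes, 1 of 7 assembly genes and 2 of 6 regulators. Both D5 libraries were above all other 11 libraries in 27 of the 45 genes, as for 17.4% of all genes. By class these were 8 of 14 core genes, 14 of 17 cap genes, 4 of 7 assembly genes and 1 of 6 regulators.

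Among the core and cap genes, the largest log2 differences were in Psmd7, Psmb4 and Psmc2. Psmd7 had 76.0 and 74.2 CPM in D1 and 246 and 272 in D5 (log2 fold change -1.79 ± 0.18, adjusted p = 2.86e-06). Psmb4 (chr3:94884093-94886961, minus strand) had 82.5 and 100.1 CPM in D1 and 276 and 291 in D5 (-1.63 ± 0.17, adjusted p = 3.47e-06). Psmc2 (chr5:21785283-21803787, plus strand) had 49.4 and 62.4 CPM in D1 and 128 and 132 in D5 (-1.21 ± 0.15, adjusted p = 1.62e-05). The recipients of a line were close together in each. Psmc1 (-1.06), Psmc3 (-0.93) and Psmd4 (-0.92) followed among the cap genes, and Psma4 and Psma5 (both -0.77) among the alpha subunits. Of the catalytic subunits, Psmb7 was lower in D1 (-0.46 ± 0.16, adjusted p = 0.0326), and Psmb5 (-0.10) and Psmb6 (0.18) did not pass.

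Among the assembly genes Psmg3 (chr5:139823592-139826885, minus strand) was lower in D1, at 2.69 and 3.47 CPM and 11.9 and 16.1 CPM in D5 (-2.15 ± 0.46, adjusted p = 0.00174). Psmg4 went the other way, with 42.5 and 52.6 CPM in D1 and 22.2 and 37.3 in D5 (0.68 ± 0.25, adjusted p = 0.0407). Psmg1 (-0.76), Psmg2 (-0.40), Psmd5 (-0.32), Psmd9 (-0.60) and Psmd10 (0.81) did not pass. The regulators also parted. The subunit genes of the PA28 activator were higher in D1, Psme1 with 389 and 472 CPM in D1 and 162 and 179 in D5 (1.34 ± 0.19, adjusted p = 7.78e-05) and Psme2 with 46.2 and 49.4 in D1 and 34.1 and 31.9 in D5 (0.54 ± 0.18, adjusted p = 0.0291). Psme3 was lower in D1, with 194 and 203 CPM in D1 and 311 and 317 in D5 (-0.66 ± 0.13, adjusted p = 0.000798), as was Psme2b (-2.59 ± 0.50, adjusted p = 0.000833). Psme4 (-0.18) and Psmf1 (0.12) did not pass. On chromosome 5, which carries Psmc2, Psmd9 and Psmg3, the other genes had a median of -0.83 in D1 over D5. On chromosome 8, which carries Psmd7, it was -0.67, and on chromosome 3, which carries Psma5, Psmb4, Psmd4 and Nras, -0.37. Of the 19 lower genes, 3 lie on chromosome 3, 2 on chromosome 5 and 1 on chromosome 8, and the rest elsewhere. Together they were spread over 11 of the 16 chromosomes that carry proteasome genes. The part of chromosome-wide shifts in these differences was not tested. Nras stood at 45.4 and 41.7 CPM in D1 and 132 and 163 in D5, and gene counts do not tell its alleles apart. Of the neutrophil markers, 5 of 8 were higher in D1 than in D5. The count of 19 was 11 without D5 replicate 2, and the count of 3 was 1 without D1 replicate 2 or D5 replicate 1. Of the 22 calls, 12 held under all 20 alternatives.

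**Figure D4:**
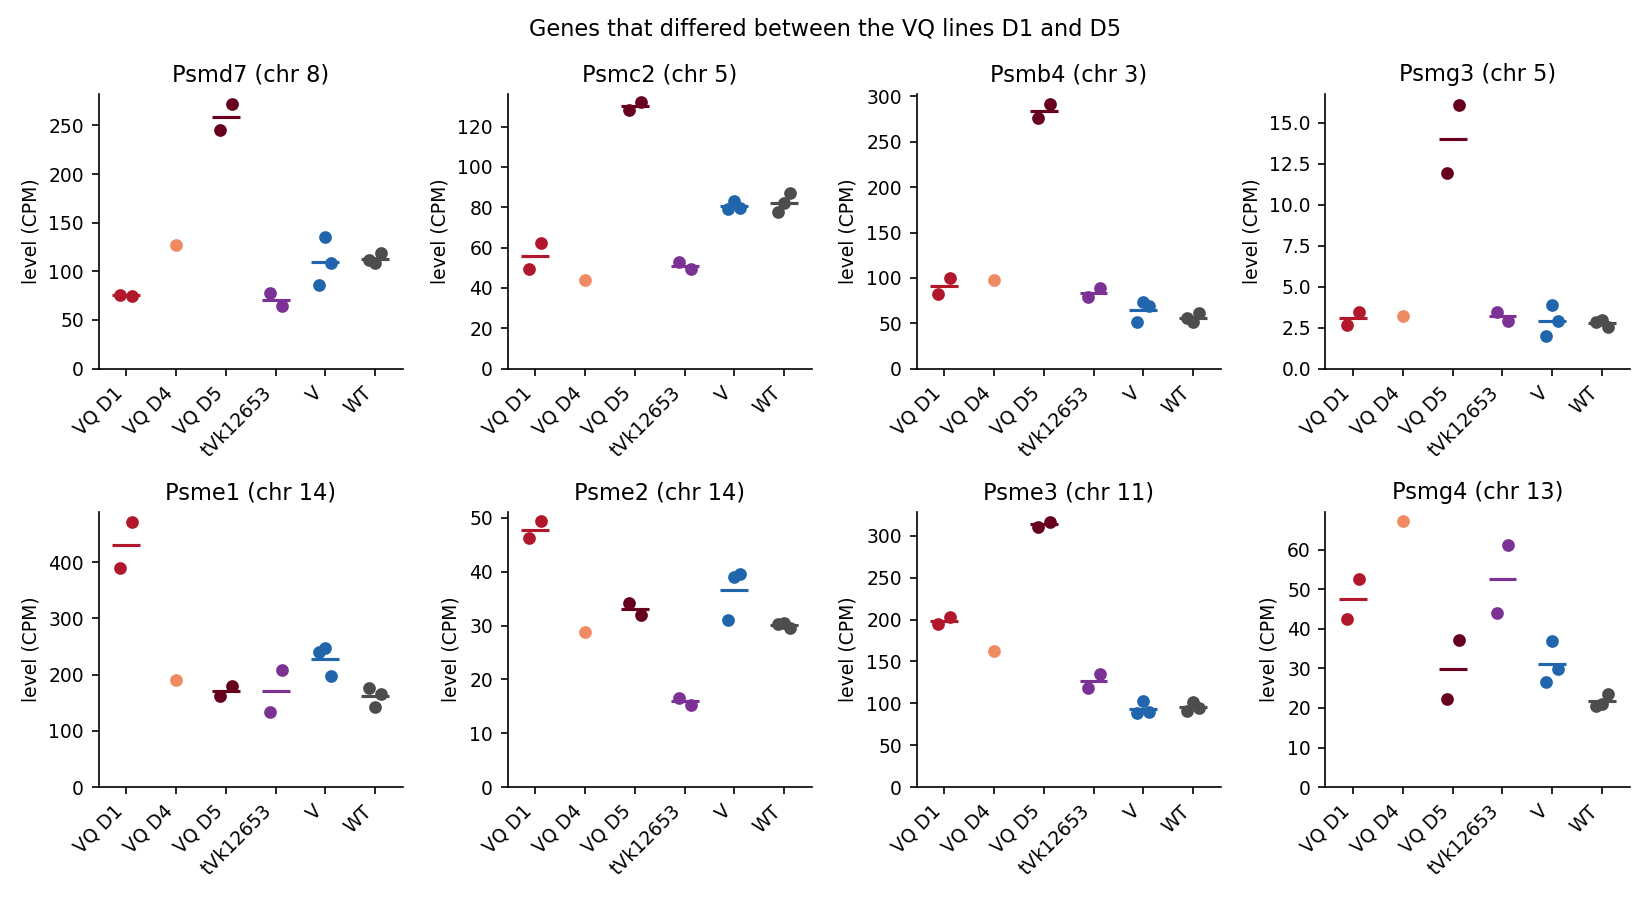
CPM by library (y axis) in D1, D4, D5, tVk12653, V and WT (x axis) for Psmd7, Psmc2, Psmb4, Psmg3, Psme1, Psme2, Psme3 and Psmg4, with group means as lines. Psmd7, Psmc2, Psmb4, Psmg3 and Psme3 are highest in D5, Psme1 and Psme2 are highest in D1, and Psmg4 is higher in D1 than in D5.

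The inducible counterparts of the catalytic subunits, Psmb8, Psmb9 and Psmb10, replace Psmb5, Psmb6 and Psmb7 in the immunoproteasome, which haematopoietic cells use and which interferon induces. None of the 3 was called in VQ against WT, and whether their changes differed from those of Psmb5, Psmb6 and Psmb7 was not tested. Psmb8, which replaces Psmb5, had 336 and 434 CPM in D1, 153 for D4, and 296 and 304 for D5, against 297, 232 and 249 in WT (log2 fold change 0.21 ± 0.30). Psmb9, which replaces Psmb6, had 48.6 and 53.3 CPM in D1, 13.5 for D4, and 64.8 and 66.4 for D5, against 90.0, 68.4 and 83.8 in WT (-0.81 ± 0.46, adjusted p = 0.204). Psmb10, which replaces Psmb7, had 18.5 and 24.4 CPM in D1, 15.6 for D4, and 51.3 and 59.0 for D5, against 49.9, 56.3 and 44.9 in WT (-0.62 ± 0.41, adjusted p = 0.269). The D4 library was the lowest of all 13 for each of the 3. All VQ libraries were below WT for Psmb9, and D1 and D4 were below WT for Psmb10 while D5 overlapped it. Psmb10 was lower in D1 than in D5 (-1.34 ± 0.20, adjusted p = 0.000116) and in tVk12653, at 17.3 and 23.2 CPM, than in V, at 64.5, 59.0 and 55.4 (-1.57 ± 0.49, adjusted p = 0.0434), and it lies on chromosome 8. The inducible genes made up 43.2 to 66.3% of the summed CPM of the 6 catalytic genes in VQ, 73.2 to 76.1% in tVk12653, 71.0 to 73.8% in V and 72.0 to 74.0% in WT, so no VQ library reached the other groups. Per kilobase, Psmb8 was 2.65 to 8.46 times Psmb5 in VQ, 13.4 to 29.2 times in tVk12653, 8.25 to 9.09 times in V and 8.51 to 11.7 times in WT. Psmb10 was 0.199 to 0.536 times Psmb7 in VQ, 0.284 to 0.324 times in tVk12653, 0.869 to 1.17 times in V and 0.813 to 1.16 times in WT.

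**Figure D5:**
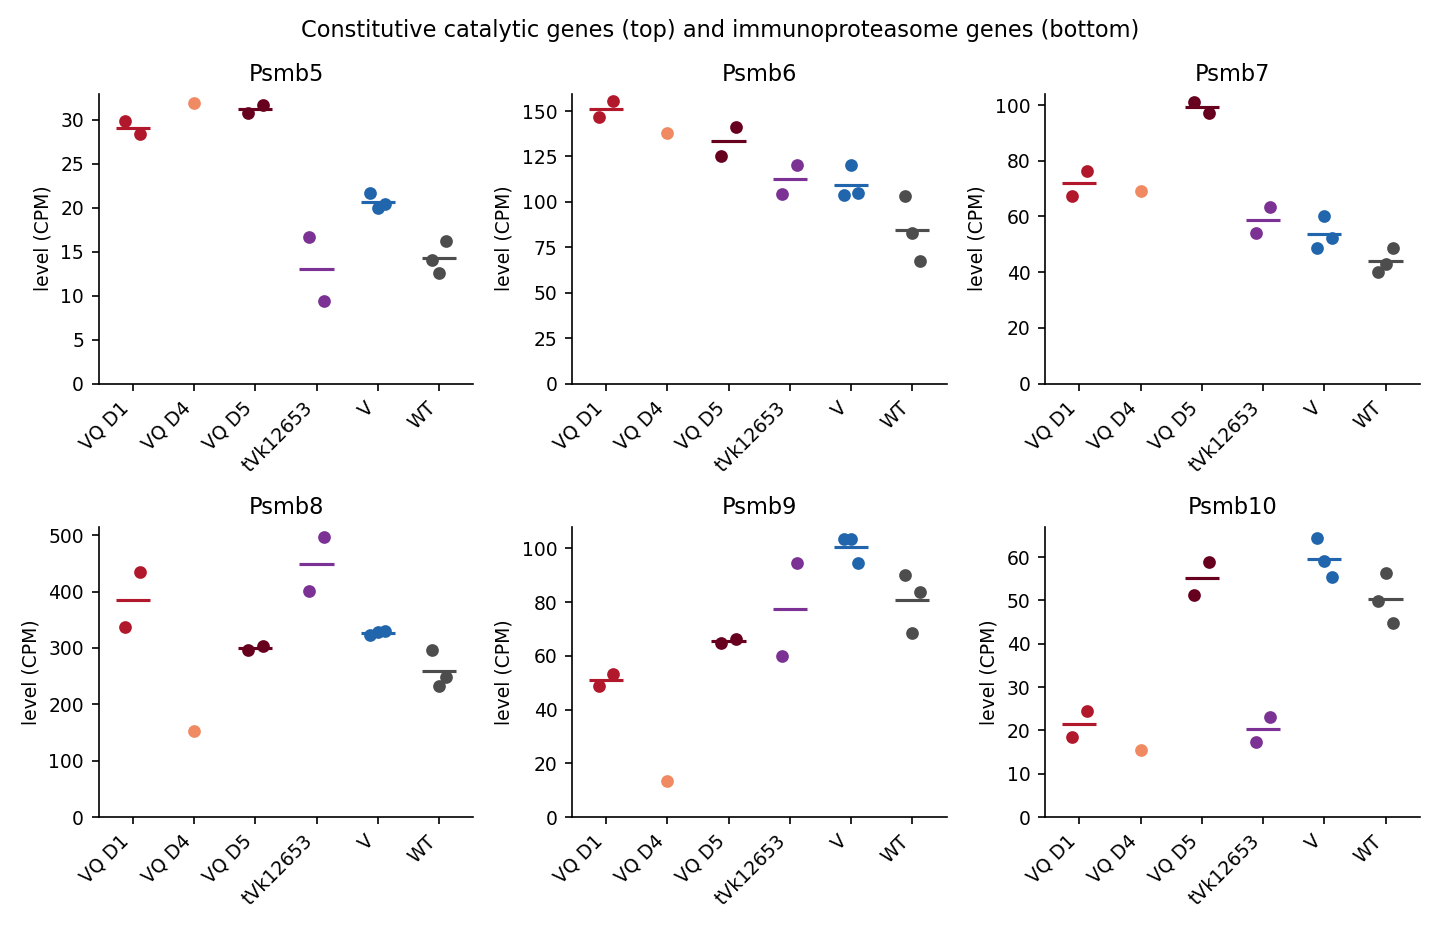
CPM by library (y axis) for the constitutive catalytic genes Psmb5, Psmb6 and Psmb7 (top) and their inducible counterparts Psmb8, Psmb9 and Psmb10 (bottom), by group (x axis), with group means as lines. In the top row all VQ libraries lie above WT. In the bottom row the D4 library is the lowest, and all VQ libraries lie below WT for Psmb9.

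Around the proteasome genes, 29 other genes of the pathway were listed, of which 26 were in the table and tested. In VQ against WT, 6 rose and 4 fell, where 17.3% of all genes were called higher and 15.1% lower, and the median log2 fold change was 0.16, against 0.08 over all genes. Those that rose included Uchl5, a deubiquitinase of the cap (1.65 ± 0.49, adjusted p = 0.0271) and Ufd1 (0.89 ± 0.16) and Nploc4 (0.69 ± 0.18), cofactors of the unfoldase p97. Of the 5 listed genes of the NRF1 axis, which induces proteasome genes when proteasome activity is short, none rose and 2, Ddi2 and Nfe2l2, fell. Nfe2l2 encodes NRF2, a different factor from NRF1. At an unadjusted p under 0.05 none of the 5 was higher. The activity of NRF1 was not measured, and its part in the results was not tested. Nfe2l1, which encodes the transcription factor NRF1, had 301 and 249.7 CPM in D1, 259 for D4, and 133 and 163 for D5, against 261, 215 and 276 in WT (-0.12 ± 0.21, adjusted p = 0.696). Its RNA was lowest in D5, and it was higher in D1 than in D5 (0.89 ± 0.16, adjusted p = 0.000484). Ddi2, which encodes the protease that releases active NRF1, fell. It had 151 and 138 CPM in D1, 128 for D4, and 173 and 151 for D5, against 272, 223 and 307 in WT (-0.83 ± 0.19, adjusted p = 0.00869). In tVk12653 Ddi2 was lower still, at 95.1 and 66.9 CPM (-1.72 ± 0.22 against WT, adjusted p = 0.000916), and it was called higher in VQ than in tVk12653 (0.89 ± 0.22, adjusted p = 0.0315). Sel1l, listed with the same axis and an adaptor of the degradation of proteins from the endoplasmic reticulum, rose in tVk12653, at 9367 and 10770.5 CPM, against 3837, 1959 and 2321 in WT (1.89 ± 0.40, adjusted p = 0.00823).

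In tVk12653 against WT, 3 of the 26 pathway genes rose and 2 fell, where 12.6% of all genes were called higher and 15.7% lower. In tVk12653 against V, 1 rose and 4 fell (10.3% and 12.9% of all genes), and in VQ against V, 5 rose and 3 fell (15.6% and 12.4%). In VQ against tVk12653, 1 rose (5.97%), and in V against WT none passed (0%). In D1 against D5, 4 were higher and 10 lower, where 20% of all genes were called higher and 21.7% lower. Pomp, the maturation factor of the core, was among the lower ones, at 49.98 and 37.8 CPM in D1 and 102 and 122 in D5 (-1.37 ± 0.20, adjusted p = 8.68e-05). Pomp also stood at 37.9 CPM in D4, 34.6 and 29.3 in tVk12653, 49.2, 62.5 and 42.5 in V and 44.3, 39.7 and 41.7 in WT, so the D5 libraries alone stood apart. Uchl5 (-1.49), the cap subunit genes Adrm1 (-0.76) and Sem1 (-0.81) and the cap deubiquitinase gene Usp14 (-0.77) were also lower in D1.

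Promoter sequences of 300 bases, from 250 before to 50 after the start of the gene, were found in RefSeq (GRCm38.p6) for 38 of the 45 genes. They were searched on both strands for 2 motifs linked to the factors above and for the CCAAT box. The E-box CACGTG, which MYC binds, was in 3 of 38 (7.89%), against 7.24% of all 27025 promoters. A short form of the antioxidant response element that NRF1 and NRF2 bind, TGACNNNGC or TGAGNNNGC, was in 16 of 38 (42.1%), against 27.7% of all. It was in 7 of 11 promoters of the core, 4 of 14 of the cap, 3 of 6 of assembly genes and 1 of 6 of the regulators. The CCAAT box was in 13 of 38 (34.2%), against 37.9% of all. The median GC content was 58.17% in these promoters and 52.67% in all. The 3 promoters with an E-box and that of Psmb5 are printed because they show where the motifs lie in genes that rose (Psmb5 and Psme3) and in genes that did not pass (Psma4 and Psmd9), with each motif match of the E-box or response element in capitals. They are at chr14:54617946-54618245 (minus strand) for Psmb5, chr11:101315963-101316262 (plus strand) for Psme3, chr9:54950609-54950908 (plus strand) for Psma4 and chr5:123227940-123228239 (plus strand) for Psmd9, written 5′ to 3′ along the gene.
Psmb5: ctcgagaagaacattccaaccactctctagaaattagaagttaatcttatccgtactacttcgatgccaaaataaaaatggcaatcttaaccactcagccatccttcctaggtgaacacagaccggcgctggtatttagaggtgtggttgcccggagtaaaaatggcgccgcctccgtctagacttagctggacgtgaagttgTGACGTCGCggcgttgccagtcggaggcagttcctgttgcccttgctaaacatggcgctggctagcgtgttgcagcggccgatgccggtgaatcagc
Psme3: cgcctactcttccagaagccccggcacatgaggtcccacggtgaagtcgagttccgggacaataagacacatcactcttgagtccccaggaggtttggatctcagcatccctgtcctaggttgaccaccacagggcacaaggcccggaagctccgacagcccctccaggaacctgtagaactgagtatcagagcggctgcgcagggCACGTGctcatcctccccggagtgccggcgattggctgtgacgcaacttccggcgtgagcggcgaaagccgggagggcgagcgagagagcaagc
Psma4: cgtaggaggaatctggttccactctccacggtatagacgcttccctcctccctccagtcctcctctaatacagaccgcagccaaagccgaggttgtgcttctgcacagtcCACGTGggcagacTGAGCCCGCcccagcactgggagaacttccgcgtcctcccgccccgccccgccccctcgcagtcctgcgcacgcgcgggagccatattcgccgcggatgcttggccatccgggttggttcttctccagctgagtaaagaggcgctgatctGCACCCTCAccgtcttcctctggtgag
Psmd9: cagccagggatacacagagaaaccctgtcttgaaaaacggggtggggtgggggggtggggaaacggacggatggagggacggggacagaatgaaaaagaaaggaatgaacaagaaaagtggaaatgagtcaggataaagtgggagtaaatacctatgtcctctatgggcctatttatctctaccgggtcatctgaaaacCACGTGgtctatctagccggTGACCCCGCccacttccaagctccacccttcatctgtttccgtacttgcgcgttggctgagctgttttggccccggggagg
Of the 2 motifs in capitals, Psmb5 holds 1 response element match, Psme3 only an E-box, Psma4 an E-box and 2 response element matches, and Psmd9 1 of each. Psme3 also holds 1 CCAAT box, which is not in capitals. A match is a description of the letters and not of binding.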

How the data were processed

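Bulk RNA-seq libraries of 50000 sorted cells each were made with the RNeasy Micro kit and the stranded SMARTer Pico kit for total RNA, per the labels' protocols. STAR 2.6.1d and the build GRCm38.p6 are named in the submitters' processing notes. The authors deposited read counts per symbol, not normalized. How they were counted, with which annotation and strand setting, is not given in the sources used here.

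All genes and lists were chosen with earlier results of these data known. Genes given with values were, per comparison and class, the largest changes past the threshold, and always the catalytic, assembly and regulator genes. Counts were scaled by trimmed means of M values (TMM), filtered with filterByExpr (minimum count 10) and tested with edgeR 4.0.16 quasi-likelihood fits (robust) in R 4.3.3, adjusted by Benjamini-Hochberg over all genes, with a threshold of 0.05. Arms were compared over 11 units, with the recipients of a VQ line summed, and D1 with D5 over 13 libraries with 1 mean per group. The biological coefficient of variation was 0.409 within arms in the first fit and 0.195 within groups in the second, where differences between VQ lines are not part of the spread. CPM are scaled per library. Levels per kilobase use the principal transcript of GENCODE M21, which also gave the coordinates. SE is the log2 fold change divided by the square root of the F statistic. Alternatives were other scaling (RLE) and filters, DESeq2 1.42.0, other fits and libraries left out. The fits were also run on simulated counts with a fixed spread and no line or recipient structure, which does not test the spread of these data. Libraries of a group differed by more than counting error (chi-square per degree of freedom 5.01 to 14.6). Same-numbered WT and V libraries deviated together (r 0.125 to 0.190 for 3 pairs, and -0.144 to -0.0380 for different numbers), so by the rule set for r over 0.1 the numbers pair V with WT. This rests on the data and not on the labels. No other groups met this rule, although differently numbered WT and D1 libraries had r of up to 0.133. Deviations from a group mean cancel out within the group, so positive r for equal numbers pulls r for different numbers down. The pairing is therefore uncertain. Single values of some listed genes are not reported here.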

Additional observations from a re-analysis of the deposited data

Results flagged for a closer look

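Differences between the transplanted lines drew attention, because each comes from a direct test between lines and not from a comparison of calls. The tVk12653 arm is 1 tumour, whose 2 recipients entered the test as separate units. In VQ over tVk12653, with 3 VQ lines and 2 tVk12653 recipients, the log2 fold changes of the 8 called genes were 0.65 for Psma2, 1.14 for Psmb2, 1.28 for Psmb5, 1.43 for Psmc6, 0.97 for Psmd14, 0.79 for Psmd2, 1.26 for Psme2 and 0.77 for Psme4. In each of these 8 genes, which were picked by their call on the same values, all VQ libraries were above both tVk12653 libraries. The same held for 23 of the 45 genes, and the share of all genes is not given here. In D1 against D5, 3 proteasome genes were higher and 19 lower in D1, which sets 2 tumours apart by the spread between recipients of each.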

How the results depend on the processing

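All 90 called results of single genes kept their direction in all 1800 refits, of which 1438 stayed past the threshold and 362 did not. In a fit of the 2 arms alone, the spread was estimated from those 2 arms. The count of higher genes in that fit was 15 in VQ against WT, 2 in VQ against V and 0 in VQ against tVk12653. In that fit, tVk12653 had 11 genes higher and 5 lower against WT and 6 higher and 6 lower against V. With no low-count filter, 12 genes were higher in VQ than in V, 5 in VQ than in tVk12653, and 1 was lower in tVk12653 than in WT. With RLE scaling 5 were higher in VQ than in tVk12653, and DESeq2 called 1 higher in D1 than in D5. With all 13 libraries and 1 mean per arm, 1 gene was lower in tVk12653 than in WT, and 1 was lower in VQ than in tVk12653. With the replicate block in that fit, tVk12653 had 3 higher and 0 lower against WT and 1 lower against V, and in the paired fit of V and WT alone 1 gene was higher in V. Within the fit of all libraries the block also took the higher count in VQ against V to 14, against 22 without it, and the lower count in VQ against tVk12653 to 0. It moved no other count by over 1.5 times. Without WT replicate 2 and D1 replicate 1 together, 0 genes were lower in tVk12653 than in WT and 4 were higher in VQ than in tVk12653. Leaving out 1 library or line at a time gave 14 to 32 higher and 0 to 2 lower in VQ against WT, 5 to 27 higher and 0 to 2 lower in VQ against V, 3 to 10 higher and 0 to 4 lower in tVk12653 against WT, 3 to 5 higher and 0 to 5 lower in tVk12653 against V, 0 in V against WT, 1 to 14 higher in VQ against tVk12653, and 1 to 4 higher and 11 to 20 lower in D1 against D5. Where that left an arm with 1 library, it was assumed to vary like the other arms. Apart from the smaller fits, the cause of these shifts was not tested. Depth limits Psmg3 and Psme2b most, the 2 genes with under 10 counts in some libraries.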
